A study of Homo sapiens with 10 samples.

Results

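p53 target genes are the genes whose transcription the tumor suppressor p53 switches on when DNA is damaged or a cell is stressed. A list of 38 such genes was followed in RNA-seq of EA.hy926 and HMEC-1 cells without any treatment, and each of the 38 symbols matched 1 row among the 60448 genes of the count table. EA.hy926 arose from the fusion of umbilical vein endothelial cells with A549, a lung carcinoma line. HMEC-1 was made from dermal microvascular endothelium and holds the SV40 large T antigen. There were 5 independent biological replicates of each line, harvested from confluent monolayers, and both lines are labelled as wild-type. EA.hy926 was grown in Advanced DMEM with 5% serum and HMEC-1 in MCDB 131 with 10% serum. The HMEC-1 medium also held hydrocortisone (1 µg/mL) and epidermal growth factor (10 ng/mL). Each line is 1 established line in its own medium, so differences due to the line, the large T antigen and the medium cannot be told apart here.

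In unstressed cells p53 is kept low by the ubiquitin ligase MDM2, whose own gene p53 activates, which closes a feedback loop. When p53 accumulates it binds a response element made of a pair of half-sites near its target genes, and the products halt the cell cycle, repair DNA, change metabolism or drive apoptosis. The SV40 large T antigen binds p53 and the retinoblastoma family proteins, and is used to immortalize cells. The transcript of the T antigen and the p53 protein were not analysed here.

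Expression was measured as counts per gene. Total counts were 34846046 to 39899324 in the libraries of EA.hy926 and 33391640 to 43877224 in those of HMEC-1. Levels are given as CPM (counts per 1e6 of the TMM-scaled library size). The log2FC is that of EA.hy926 over HMEC-1 and is followed by its standard error. Its p comes from the quasi-likelihood test of edgeR and was adjusted (Benjamini-Hochberg) over the 16310 genes left by the filter on low counts. A gene was called at an adjusted p under 0.05 with an absolute log2FC over 1. Endothelial markers were present in both lines, and summed to 4974 to 5652 CPM per EA.hy926 library and 1779 to 1829.7 CPM per HMEC-1 library. Of the 10 markers, 8 had at least 10 counts in every EA.hy926 library, and all 10 did so in HMEC-1. EMCN was the only one at or below 3 counts in every library of a line, EA.hy926. CLDN5 did not exceed 5 counts in any library of EA.hy926, while its lowest HMEC-1 library held 51 (log2FC -4.27). Of 6 fibroblast or smooth muscle markers, 5 had at least 10 counts in every HMEC-1 library (sum 519 to 544 CPM, DCN at 0) and 3 in every EA.hy926 library (sum 9.03 to 10.4 CPM, DCN at 0). Of 8 epithelial markers, 5 had at least 10 counts in every library of a line, in either line, and CDH1 and ELF3 stayed at or below 3 counts. Their sum was 1275 to 1389 CPM for EA.hy926 and 425 to 487 CPM for HMEC-1. Single markers went both ways. KRT8 (log2FC 4.83) and EPCAM (1.83) were called higher in EA.hy926, and KRT19 (-4.71) and CLDN4 (-1.42) lower. Of the fibroblast or smooth muscle markers, ACTA2 was called higher in EA.hy926 (log2FC 2.68) and the other 4 tested were called lower. The 4 leukocyte markers summed to at most 1.13 CPM in any library. The part that cell identity has in the differences of the p53 target genes was not tested.

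The p53 target genes were mostly higher in EA.hy926. All 38 passed the filter on low counts, and 26 (68.4%) passed both thresholds, against 35.5% of all genes tested. The EA.hy926 level was the higher one for 25 (65.8%), against 19.1% of all genes tested. Past both thresholds 1 member was lower, TNFRSF10C, where 16.4% of all genes tested were lower. An adjusted p under 0.05 was found for 34 members in the higher and 3 in the lower direction, beside 42.6% and 43.3% of all genes tested, so that 37 of 38 members (97.4%) differed, beside 85.8%. The median log2FC over the members was 1.31 and that over all genes tested was -0.010. In bulk libraries, fewer cells with a transcript and less of it per cell cannot be told apart. The summed level of the 38 members was 4397 to 4500.2 CPM per EA.hy926 library and 1881 to 1924 CPM per HMEC-1 library. The replicates were close, with a median coefficient of variation of 3.45% over the members in EA.hy926 and 4.47% in HMEC-1. For 37 of 38 members the libraries of the lines did not overlap in CPM, which was also the case for 77.4% of all genes tested.

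**Figure D1:**
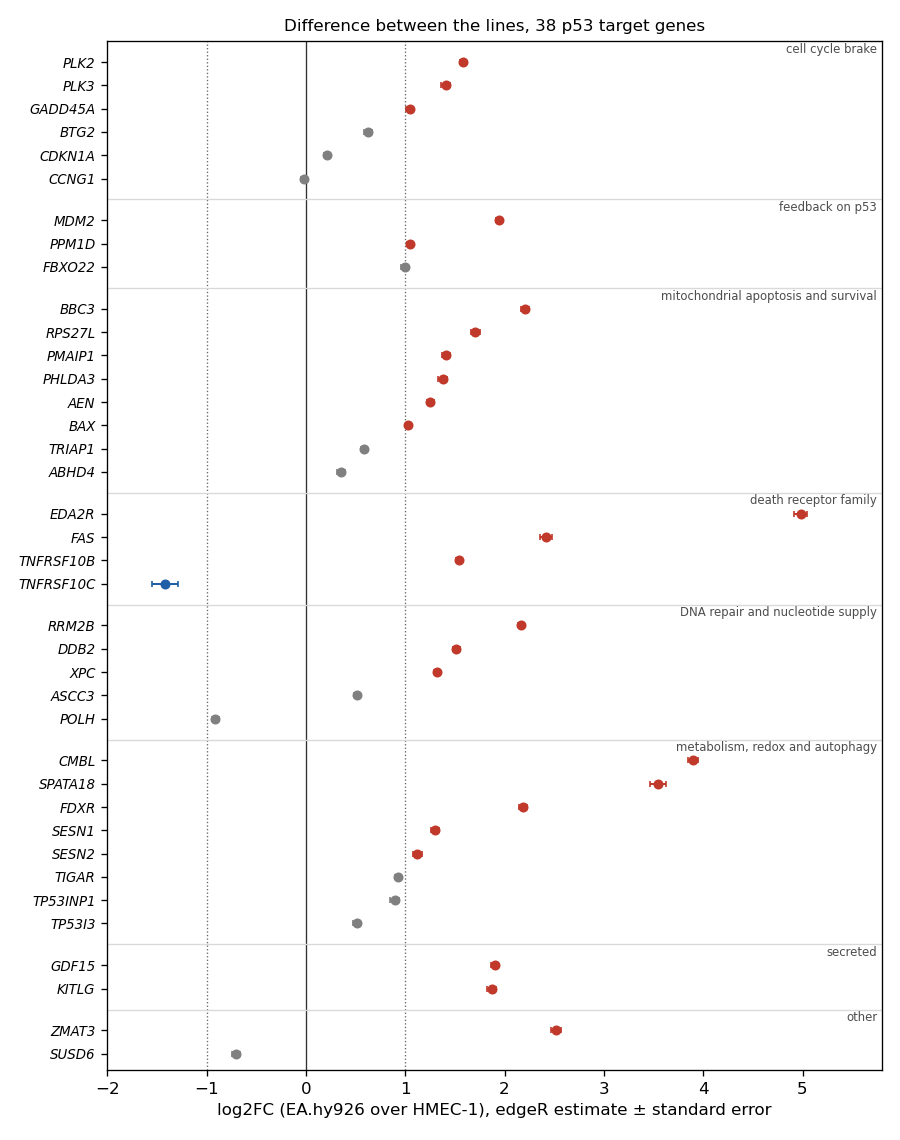
Log2FC of the 38 p53 target genes, EA.hy926 over HMEC-1, on the horizontal axis, with 1 row per gene grouped by role. Points are edgeR estimates and bars their standard errors, dotted lines mark a log2FC of -1 and 1, and red and blue points are the 25 higher and the 1 lower gene past both thresholds.

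Scaling set the borderline calls. When TMM factors were replaced by library totals, all log2FC values shifted by a median of -0.13. The number of members called higher was 21, and the number called lower was 2. Of the 16310 genes tested, 2809 were called higher and 3085 lower with library totals, against 3110 and 2674 with TMM factors. GADD45A, PPM1D, BAX and SESN2 then had log2FC values of 0.91, 0.91, 0.90 and 0.99, under the threshold.

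The p53 response element was searched by its consensus in GRCh38 on both strands, within 5000 bases on each side of the canonical transcript's start site of every protein-coding gene tested, as a pair of adjoining half-sites of 10 bases each with at most 2 bases off the consensus and the C and G of both cores kept. The limit of 2 bases was chosen after the counts at 1 base had been seen. Of the 38 members, 18 (47.4%) held such a site, against 7.76% of the 13025 protein-coding genes tested. With at most 1 base off, 7 members (18.4%) held one, against 1.05%, and complete sites were found for PLK2 and ZMAT3 among the members and for 19 genes in all. Of the 25 members called higher, 15 (60.0%) held a site with at most 2 bases off, as did 3 of the other 13 (23.1%). With at most 1 base off these were 6 (24.0%) and 1 (7.69%). The other 13 include members that were higher under the fold threshold, among them CDKN1A and BTG2, which hold sites. Of 29 further p53 target genes, described below, 10 (34.5%) held a site with at most 2 bases off. Whether a site goes with the difference between the lines was not tested. A match describes the sequence and not binding, pairs with a spacer between the half-sites were not searched, and the consensus was drawn from known target genes. In the shorter RefSeq promoter windows (GRCh38.p14, 300 bases), 8 of 29 members matched held a complete half-site (27.6%), against 8.06% of all 27305 genes in that table. Not every site found is printed. Those of AEN, BAX, BTG2, PMAIP1, RRM2B and TNFRSF10B are left out, and EDA2R and CCNG1 each held a further site with 2 bases off. The sites below are shown because they include members with large differences (EDA2R, CMBL, SPATA18, ZMAT3, FAS) and members with small or no difference (CDKN1A, CCNG1). Each is given with its GRCh38 coordinates, its place relative to the canonical transcript and the number of bases off the consensus, 5′ to 3′ on the strand of the gene, with the core of each half-site in capitals.
MDM2, chr12:68808923-68808942, strand +, intron, 2 off: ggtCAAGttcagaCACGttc
CDKN1A, chr6:36676449-36676468, strand +, upstream of the start site, 2 off: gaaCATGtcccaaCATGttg
PLK2, chr5:58462274-58462293, strand -, upstream of the start site, 0 off: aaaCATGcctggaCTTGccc
GADD45A, chr1:67686775-67686794, strand +, intron, 1 off: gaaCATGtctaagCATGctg
ZMAT3, chr3:179070188-179070207, strand -, intron, 0 off: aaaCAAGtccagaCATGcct
EDA2R, chrX:66638713-66638732, strand -, intron, 1 off: gaaCATGcctggaCGTGtcc
FAS, chr10:88991309-88991328, strand +, intron, 2 off: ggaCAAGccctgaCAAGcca
CMBL, chr5:10307584-10307603, strand -, intron, 2 off: acaCAAGcccacaCAAGccc
SPATA18, chr4:52051957-52051976, strand +, intron, 2 off: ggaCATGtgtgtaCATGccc
GDF15, chr19:18385308-18385327, strand +, upstream of the start site, 2 off: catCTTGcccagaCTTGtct
DDB2, chr11:47214969-47214988, strand +, untranslated part of an exon, 1 off: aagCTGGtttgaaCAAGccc
CCNG1, chr5:163437926-163437945, strand +, intron, 1 off: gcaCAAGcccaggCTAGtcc

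Both complete sites have cores of the letters CATG together with CTTG in PLK2 and CAAG in ZMAT3. The MDM2 and CDKN1A sites each had 2 bases off the consensus, the former in an intron and the latter upstream. Sites were thus found in members with large differences and also in CCNG1, which did not pass the test of the difference.

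The 3 genes listed here as feedback on p53 were higher in EA.hy926. MDM2 (ENSG00000135679, chromosome 12, 68808177 to 68845544), which encodes the ligase that marks p53 for degradation, had 382, 371, 372, 374 and 349.8 CPM in replicates 1 to 5 of EA.hy926 and 96.2, 90.4, 93.3, 98.97 and 102 CPM in replicates 1 to 5 of HMEC-1. Every EA.hy926 library lay above every HMEC-1 library, and the level was 3.85-fold higher (log2FC 1.94 ± 0.032, edgeR adjusted p = 1.9e-22). Exons of other genes cover 14.7% of its exonic bases. PPM1D, a phosphatase that removes activating phosphates from p53 and its kinases, had 77.7 ± 1.48 CPM (SD, n = 5) in the EA.hy926 and 37.6 ± 1.14 CPM in the HMEC-1 libraries (log2FC 1.05 ± 0.030, edgeR adjusted p = 2.0e-18). FBXO22, a ubiquitin ligase subunit that acts on p53, had 100.3 ± 3.01 and 50.4 ± 1.95 CPM, and its log2FC of 0.99 (edgeR adjusted p = 1.3e-17) was just under the fold threshold. Exons of other genes cover 16.2% of the exonic bases of FBXO22. Without EA.hy926 replicate 1, EA.hy926 replicate 3 or HMEC-1 replicate 1 it was 1.01, 1.01 and 1.00, and passed. All 3 genes were higher at an adjusted p under 0.05, as were 42.6% of all genes tested.

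Among the 6 genes listed as cell cycle brakes, 3 were called higher (50%, against 19.1% of all genes tested). The best known one differed little. CDKN1A (ENSG00000124762, chromosome 6, 36676460 to 36687337), which encodes the CDK inhibitor p21, had 267, 266, 258, 276 and 262 CPM in the EA.hy926 libraries and 230.1, 221, 235, 227 and 238 CPM in those of HMEC-1. The lines did not overlap, but the level was only 1.16-fold higher in EA.hy926 (log2FC 0.21 ± 0.026, edgeR adjusted p = 2.1e-07), and with library totals the log2FC was 0.074. CCNG1, the gene of cyclin G1, had 131, 142, 129, 136 and 127 CPM in the EA.hy926 libraries and 133, 129.6, 137, 135 and 138 CPM in those of HMEC-1. Its libraries overlapped, and it was the member without a difference past the test (log2FC -0.015 ± 0.031, edgeR adjusted p = 0.655), while library totals gave -0.15 (edgeR adjusted p = 1.6e-04). PLK2, a polo-like kinase gene that restrains the cell cycle after stress, had 378, 381, 370.1, 390.0 and 371 CPM in the EA.hy926 libraries and 126, 132, 127, 122 and 126 CPM in those of HMEC-1, a 2.99-fold higher level (log2FC 1.58 ± 0.026, edgeR adjusted p = 1.7e-22). The related kinase gene PLK3 had 47.3 ± 2.46 against 17.8 ± 0.9396 CPM (SD, n = 5), a log2FC of 1.41. GADD45A, a gene of growth arrest and DNA damage, was 2.07-fold higher (log2FC 1.05 ± 0.036). BTG2, an antiproliferative gene, had a log2FC of 0.62 and was under the fold threshold.

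**Figure D2:**
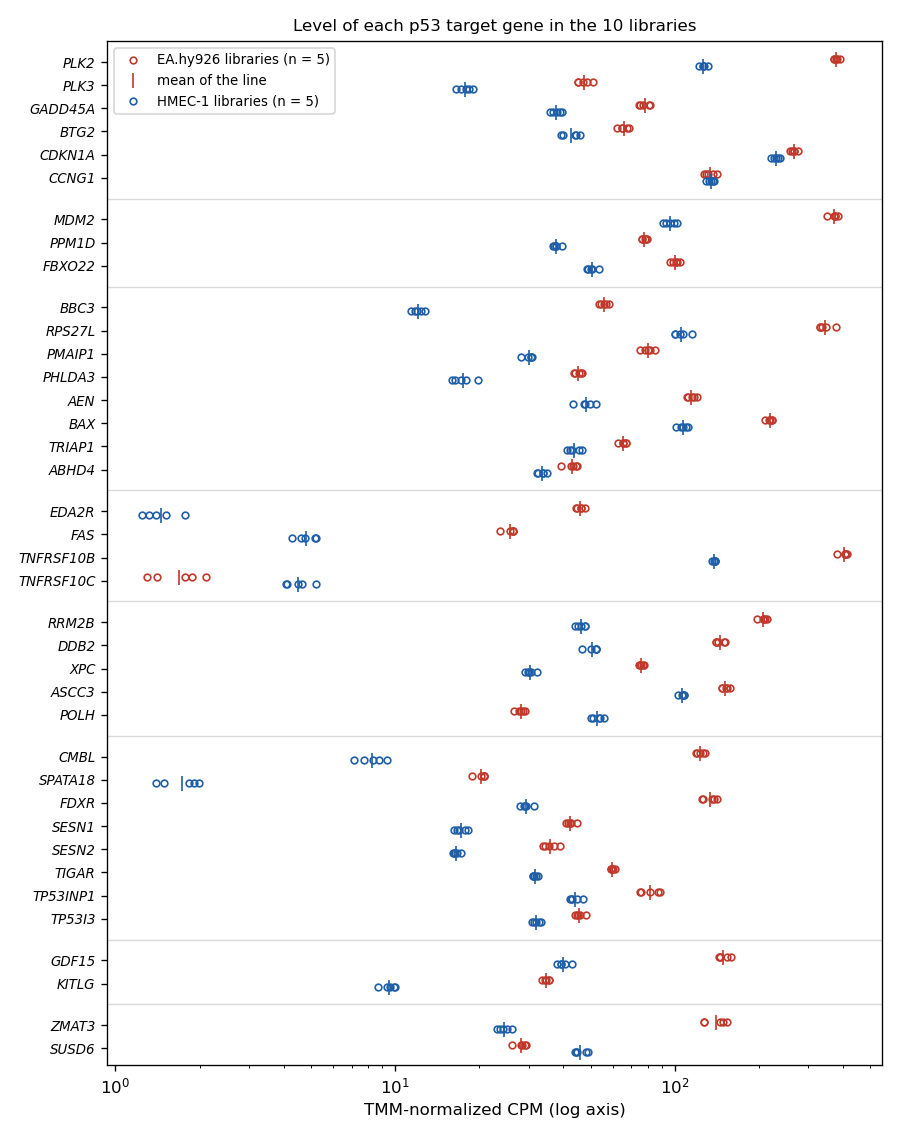
TMM-normalized CPM of the 38 p53 target genes on a log axis, with 1 open circle per library (red for EA.hy926, blue for HMEC-1, n = 5 each) and a bar at the mean of each line. The circles of the lines are apart for 37 genes and overlap for CCNG1, and EDA2R shows the widest gap.

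Of the 5 genes for DNA repair and nucleotide supply, 3 were called higher (60%, against 19.1% of all genes tested). POLH was lower at an adjusted p under 0.05, as were 43.3% of all genes tested. RRM2B (ENSG00000048392, chromosome 8, 102204502 to 102238961), the p53-inducible small subunit of ribonucleotide reductase, had 208, 214, 211, 206 and 196 CPM in the EA.hy926 libraries and 47.9, 43.99, 47.9, 45.1 and 46.3 CPM in those of HMEC-1, a 4.48-fold higher level (log2FC 2.16 ± 0.031, edgeR adjusted p = 1.9e-23). DDB2, which recognizes ultraviolet damage for nucleotide excision repair, had 140.1, 143, 141, 152 and 149 CPM in the EA.hy926 libraries and 46.5, 52.2, 50.3, 52.2 and 52.4 CPM in those of HMEC-1 (log2FC 1.51 ± 0.034, edgeR adjusted p = 4.0e-20). In both genes all EA.hy926 libraries stood above the HMEC-1 libraries, and the lines were without overlap for 77.4% of all genes tested. XPC, the other damage sensor of that repair pathway, had 75.9 ± 1.43 against 30.4 ± 1.17 CPM (log2FC 1.32 ± 0.032, edgeR adjusted p = 9.8e-20), with 24.6% of its exonic bases under exons of other genes, mainly its antisense transcript. ASCC3, a helicase gene, had a log2FC of 0.51. POLH, the polymerase that copies past ultraviolet lesions, went the other way, with 27.8, 28.3, 29.2, 26.6 and 28.6 CPM in the EA.hy926 libraries and 51.1, 50.1, 55.7, 53.8 and 53.4 CPM in those of HMEC-1. It was 1.88-fold lower in EA.hy926 (log2FC -0.91 ± 0.037, edgeR adjusted p = 1.3e-15), and with library totals its log2FC of -1.05 passed both thresholds.

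The 8 genes grouped under mitochondrial apoptosis and survival were all higher in EA.hy926 (adjusted p under 0.05), against 42.6% of all genes tested. Of the 8, 6 (75%) also passed the fold threshold, against 19.1% of all genes tested. BBC3 (ENSG00000105327, chromosome 19, 47220822 to 47232766), which encodes the BH3-only protein PUMA, had 57.96, 53.7, 54.3, 56.6 and 55.6 CPM in the EA.hy926 libraries and 12.7, 11.99, 12.4, 11.4 and 11.7 CPM in those of HMEC-1, a 4.61-fold higher level (log2FC 2.21 ± 0.040, edgeR adjusted p = 6.9e-22). PMAIP1, the gene of the BH3-only protein NOXA, had 84.7, 78.5, 80.04, 81.7 and 74.99 CPM in the EA.hy926 libraries and 30.7, 30.7, 30.9, 28.2 and 29.99 CPM in those of HMEC-1 (log2FC 1.41 ± 0.036, edgeR adjusted p = 3.4e-19). BAX, which encodes the pore-forming effector downstream of both, had 223, 223, 209.9, 218 and 217 CPM in the EA.hy926 libraries and 111, 107, 109, 101 and 105 CPM in those of HMEC-1. The difference of BAX was the smallest of the 6, 2.04-fold (log2FC 1.03 ± 0.028, edgeR adjusted p = 9.7e-19), and without HMEC-1 replicate 4 its log2FC was 0.999. AEN, an apoptosis-enhancing nuclease gene, and PHLDA3, an inhibitor of AKT, had log2FC values of 1.25 and 1.38. Exons of other genes cover 18.4% of the exonic bases of PHLDA3. RPS27L, a ribosomal protein paralog of RPS27, had 344 ± 20.1 against 105 ± 6.46 CPM (SD, n = 5), a log2FC of 1.71, and can share reads with its paralog. TRIAP1, which restrains apoptosis, and ABHD4, a lipase gene, stayed under the fold threshold with 0.59 and 0.36.

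The death receptor family held both the largest difference among the members and the only call in the lower direction. EDA2R (ENSG00000131080, chromosome X, 66595637 to 66639298), a receptor of the tumor necrosis factor receptor family that binds ectodysplasin A2, had 47.7, 44.4, 46.2, 44.8 and 46.1 CPM in the EA.hy926 libraries and 1.397, 1.25, 1.32, 1.52 and 1.78 CPM in those of HMEC-1, which was 49 to 68 counts per HMEC-1 library. The level was 31.6-fold higher in EA.hy926 (log2FC 4.98 ± 0.064, edgeR adjusted p = 2.4e-24), and with each library left out the log2FC was 4.92 to 5.05. FAS (ENSG00000026103, chromosome 10, 88953813 to 89029605), the receptor of FAS ligand, had 25.9, 26.4, 26.3, 23.8 and 26.5 CPM in the EA.hy926 libraries and 4.28, 5.196, 4.62, 4.78 and 5.15 CPM in those of HMEC-1 (log2FC 2.42 ± 0.058, edgeR adjusted p = 1.1e-19). TNFRSF10B, which encodes the TRAIL receptor DR5, had 404, 379, 406, 408 and 412 CPM in the EA.hy926 libraries and 138, 139, 139, 135 and 139 CPM in those of HMEC-1 (log2FC 1.54 ± 0.026, edgeR adjusted p = 2.8e-22). These 3 receptors had no overlap between the lines, as was the case for 77.4% of all genes tested. TNFRSF10B was the most abundant of the family per exonic length.

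TNFRSF10C (ENSG00000173535, chromosome 8, 23102921 to 23117445) encodes a TRAIL receptor anchored to the membrane without an intracellular death domain, a decoy. It had 1.41, 2.11, 1.88, 1.77 and 1.29 CPM in the EA.hy926 libraries and 4.51, 5.22, 4.08, 4.64 and 4.11 CPM in those of HMEC-1. Every HMEC-1 library was above every EA.hy926 library, and the level was 2.67-fold lower in EA.hy926 (log2FC -1.42 ± 0.13, edgeR adjusted p = 1.2e-09). It rests on 48 to 70 counts in each EA.hy926 and 157 to 213 in each HMEC-1 library. Exons of other genes, whose reads may be counted here, cover 33.01% of its exonic bases, the largest share among the members. With each library left out the log2FC was -1.50 to -1.33. Beside it, the further TRAIL receptor genes TNFRSF10A and TNFRSF10D, the latter also a decoy, were higher, with log2FC values of 1.61 and 0.43 (edgeR adjusted p = 2.8e-17 and 1.4e-11), and were named after their values were seen.

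The genes of metabolism, redox control and autophagy were higher in EA.hy926 in all 8 cases, with adjusted p values under 0.05, against 42.6% of all genes tested. Of the 8, 5 (62.5%) passed both thresholds, against 19.1% of all genes tested. CMBL (ENSG00000164237, chromosome 5, 10275875 to 10307902), a hydrolase gene, had 126, 129, 123, 119 and 120.3 CPM in the EA.hy926 libraries and 7.76, 7.11, 8.37, 8.73 and 9.37 CPM in those of HMEC-1, a 14.9-fold higher level (log2FC 3.90 ± 0.048, edgeR adjusted p = 1.4e-24). SPATA18, a gene of mitochondrial quality control, had 20.3, 18.8, 20.8, 20.8 and 20.8 CPM in the EA.hy926 libraries and 1.397, 1.84, 1.91, 1.99 and 1.49 CPM in those of HMEC-1 (log2FC 3.54 ± 0.078, edgeR adjusted p = 2.2e-20). After EDA2R, these were the largest differences among the members. FDXR, the ferredoxin reductase of mitochondria, had 126, 138, 126, 142 and 136 CPM in the EA.hy926 libraries and 29.1, 27.99, 29.02, 29.3 and 31.5 CPM in those of HMEC-1 (log2FC 2.18 ± 0.039, edgeR adjusted p = 6.4e-22). The sestrin genes SESN1 and SESN2, which restrain mTORC1 under stress, had 42.3 ± 1.41 and 35.9 ± 2.04 CPM in EA.hy926 against 17.2 ± 0.8195 and 16.5 ± 0.4397 CPM in HMEC-1. Their log2FC values were 1.30 and 1.12 (edgeR adjusted p = 1.2e-17 and 6.3e-16). TIGAR, which lowers glycolysis, TP53INP1, which acts in autophagy and stress responses, and TP53I3, a quinone oxidoreductase gene, had log2FC values of 0.92, 0.89 and 0.51. Of TIGAR, 19.4% of the exonic bases lie under exons of other genes. TP53INP1 varied more in EA.hy926 than most members, from 75.4 to 88.6 CPM.

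Both secreted factors were called higher, as were 19.1% of all genes tested. GDF15 (ENSG00000130513, chromosome 19, 18374731 to 18389176), a stress cytokine of the transforming growth factor β family, had 159, 145, 145, 153 and 143 CPM in the EA.hy926 libraries and 40.4, 39.1, 42.8, 37.9 and 39.1 CPM in those of HMEC-1, a 3.74-fold higher level (log2FC 1.90 ± 0.036, edgeR adjusted p = 1.6e-21). KITLG, the ligand of the receptor KIT, had 34.7 ± 0.836 against 9.504 ± 0.537 CPM (SD, n = 5), with a log2FC of 1.87 ± 0.046. Of the remaining 2 members, ZMAT3, an RNA-binding zinc finger gene that acts in splicing, had 153, 149, 145, 127 and 127 CPM in the EA.hy926 libraries and 26.1, 23.1, 25.05, 24.4 and 23.7 CPM in those of HMEC-1 (log2FC 2.52 ± 0.052, edgeR adjusted p = 6.6e-21). The EA.hy926 libraries of ZMAT3 were spread more widely than those of most members, with a coefficient of variation of 8.72%, and the lowest of them was 127 CPM while the highest HMEC-1 library had 26.1 CPM. SUSD6, a membrane protein gene, was lower in EA.hy926 with 28.3 ± 1.24 against 45.99 ± 2.34 CPM (log2FC -0.70 ± 0.041, edgeR adjusted p = 7.2e-13).

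In RPKM (CPM divided by the exonic length in kilobases), 28 members exceeded a mean of 10 in EA.hy926 and 14 in HMEC-1, and 1 and 3 members were under 1. CDKN1A was the most abundant in both lines, with 88.7 ± 2.23 RPKM (SD, n = 5) in EA.hy926 and 76.8 ± 2.18 RPKM in HMEC-1. In EA.hy926 it was followed by BAX (84.4 ± 2.05 RPKM), PLK2 (81.4 ± 1.77 RPKM) and TNFRSF10B (80.2 ± 2.66 RPKM). By mean ± SD, BAX overlapped PLK2 and PLK2 overlapped TNFRSF10B, while CDKN1A and BAX did not overlap. In HMEC-1 the next were CCNG1 (43.4 ± 1.13 RPKM) and BAX (41.3 ± 1.45 RPKM), whose mean ± SD overlapped. At the lower end, FAS had 0.879 ± 0.0387 RPKM in EA.hy926 and 0.164 ± 0.0131 RPKM in HMEC-1, EDA2R had 0.402 ± 0.0574 RPKM and SPATA18 0.347 ± 0.0529 RPKM in HMEC-1. The order depends on the length used. With the canonical transcript in place of all exons, FAS had 6.97 and 1.30 RPKM, BAX had 274 and 134 RPKM and CDKN1A 126 and 109 RPKM in EA.hy926 and HMEC-1, which put BAX first in both lines.

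**Figure D3:**
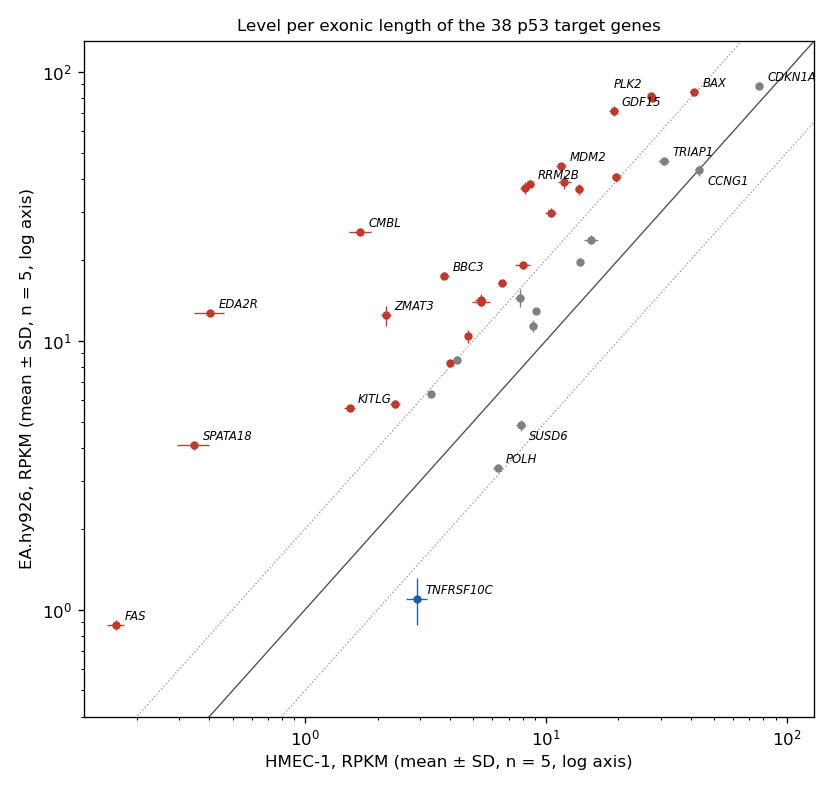
Mean RPKM of the 38 p53 target genes in HMEC-1 (horizontal) and EA.hy926 (vertical), on log axes, with SD bars (n = 5). The solid line marks equal levels and the dotted lines a 2-fold difference, red and blue points are the 25 higher and 1 lower genes past both thresholds, and CDKN1A and CCNG1 lie near the line of equal levels while EDA2R, CMBL and SPATA18 lie farthest from it.

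Genes that act on p53 or signal to it were read beside its targets. CDKN2A (ENSG00000147889, chromosome 9, 21967752 to 21995301), whose products include the MDM2 inhibitor ARF and the CDK inhibitor p16, was at 0 counts throughout EA.hy926, against 343, 326, 326, 309 and 304 CPM in the HMEC-1 libraries. The EA.hy926 level was at least 3865-fold lower, taken at the mean level of 3 counts per library (edgeR adjusted p = 3.2e-24), and the gene counts do not tell its products apart. MDM4, the partner of MDM2 that masks p53, was lower in EA.hy926 (log2FC -0.35 ± 0.048, edgeR adjusted p = 7.5e-07). ATM, the kinase that signals double-strand breaks, was higher (log2FC = 0.61) and CHEK1, the checkpoint kinase of stalled replication, lower (-0.27). The deubiquitinase gene USP7 and the checkpoint kinase gene CHEK2 had log2FC values of -0.0092 and -0.043 (edgeR adjusted p = 0.734 and 0.388).

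Over the 23 p53 regulators reported, 1 was called higher (4.35%, against 19.1% of all genes tested) and 4 lower (17.4%, against 16.4%), and the median log2FC was -0.25. TP63, a p53 relative, was the gene called higher (log2FC = 2.55, edgeR adjusted p = 2.1e-07), on 28 to 55 counts in each EA.hy926 and 1 to 12 in each HMEC-1 library. Its other relative TP73 was seen with 0 to 3 counts in each EA.hy926 and 148 to 223 in each HMEC-1 library, at least 52.0-fold lower (edgeR adjusted p = 5.7e-16). PPP1R13L, the gene of the p53 inhibitor iASPP, was 6.17-fold lower (log2FC -2.63 ± 0.040, edgeR adjusted p = 4.6e-23). PPP1R13B, the gene of the p53 cofactor ASPP1, was the remaining call and was lower by a log2FC of -1.58, named after its value was seen.

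A second list of 30 further p53 target genes was read beside the members. Of these, 29 were tested, 8 were called higher (27.6%, against 19.1% of all genes tested) and 6 lower (20.7%, against 16.4%), with a median log2FC of 0.47. With at least 10 counts in every library, 4 were called lower. The highest were CYFIP2, a regulator of actin assembly (log2FC = 3.98), TRIM22, an interferon-inducible ligase (3.85), and PERP, a gene of desmosomes and apoptosis (2.72). The lowest were FUCA1, a lysosomal fucosidase (log2FC = -5.52, 4 to 7 counts per EA.hy926 library), DDIT4, an inhibitor of mTORC1 (-3.06), and SFN, the 14-3-3 sigma gene (-2.25, 0 to 5 counts per EA.hy926 library). Their adjusted p values from edgeR were at most 3.1e-05. TP53AIP1 was not tested, with 0 to 1 counts in any library.

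The DREAM target genes are cell cycle genes that p53 lowers indirectly, through p21 and the DREAM repressor complex. In edgeR all 16 had an adjusted p under 0.05 and a lower level in EA.hy926, against 43.3% of all genes tested, and 5 of them (31.3%) passed both thresholds, against 16.4%. The median log2FC was -0.66. MYBL2, a transcription factor gene of the cell cycle, had 77.4 ± 4.41 CPM (SD, n = 5) in the EA.hy926 and 346 ± 2.57 CPM in the HMEC-1 libraries (log2FC = -2.16), CCNA2, the cyclin A2 gene, had a log2FC of -1.55, and CCNB2, the cyclin B2 gene, one of -1.26. The medians of the p53 target genes and the DREAM target genes lay on opposite sides of 0. Below 0 were 4 of the 38 p53 target genes (TNFRSF10C, POLH, SUSD6 and CCNG1). The log2FC of CDKN1A, the p21 gene, was 0.21. Whether p53 or p21 has a part in the difference of the DREAM target genes was not tested.

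**Figure D4:**
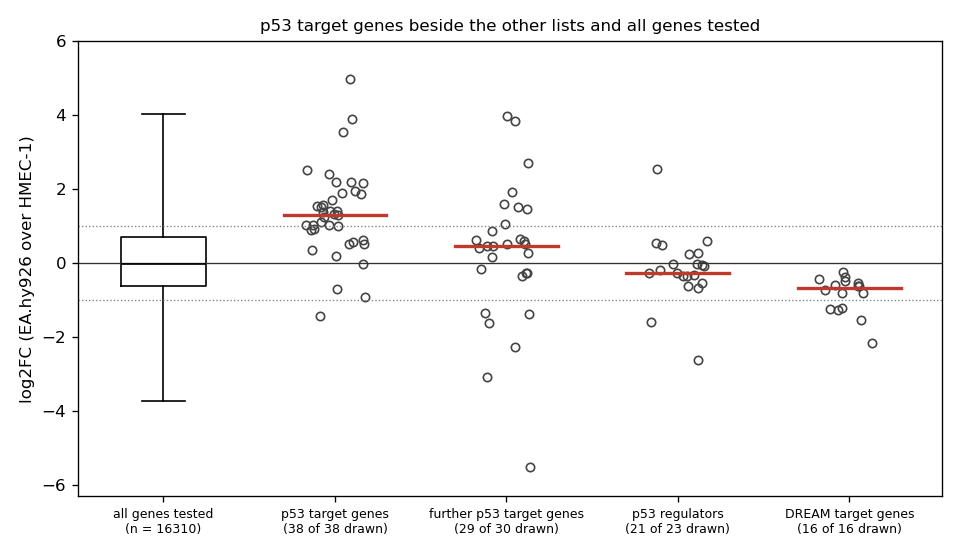
Log2FC (EA.hy926 over HMEC-1) of all 16310 genes tested (box from the lower to the upper quartile with the median, whiskers from the 5th to the 95th percentile) and of each gene of the 4 lists (circles, with the list's median in red). The median is 1.31 for the 38 p53 target genes and -0.66 for the 16 DREAM target genes, and CDKN2A and TP73, at or below 3 counts in every EA.hy926 library, are not drawn.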

How the data were processed

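RNA was extracted from confluent monolayers of EA.hy926 and HMEC-1 (5 replicates each), mRNA was enriched with oligo(dT) beads and libraries were sequenced on an Illumina instrument. The authors aligned reads to GRCh38 with HISAT2, and the deposited values are raw read counts per Ensembl gene. The paper's methods name HTSeq for the counting, while the submitters' processing notes list featureCounts. The annotation release and strand setting are not given in the sources used here, so genes that share exonic bases cannot be separated with certainty.

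Columns were matched to libraries by name. Symbols, coordinates and exonic lengths came from GENCODE 44 (GRCh38), which matched 56434 of 60448 genes. Low genes were removed by filterByExpr at its minimum count of 10 and total of 15. After TMM scaling, edgeR 4.0.16 (R 4.3.3) was run with glmQLFit, then glmQLFTest. The standard error is the absolute log2FC over the square root of F. Overlaps were computed with bedtools 2.31.1 and figures drawn with matplotlib 3.10.9. Where all 5 libraries of a line held 3 counts or fewer (0.0651 to 0.0904 CPM), only a bound of the fold is given, which covers counting error only.

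The members and lists were chosen with earlier results of these data known. Named were all 38 members, MDM4, CDKN2A, USP7, ATM, CHEK1 and CHEK2, and of each other list up to 3 called genes with the highest and the lowest log2FC. The result for 1 gene of the regulators is not reported here, and it enters no count over that list. The length of the canonical transcript for RPKM was added after seeing the data. Alternatives were DESeq2 1.42.0, limma-voom (limma 3.58.1, the tool the study names), RLE factors, library totals, other filters, a replicate block, glmTreat and each library left out. The fit was tested on simulated counts.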

Additional observations from a re-analysis of the deposited data

Results flagged for a closer look

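Within each line, a library far from the other 4 was looked for by Dixon's ratio in 76 groups of 5 libraries, the 38 members in both lines. A library stood apart in 3 of the 76 groups. Chance alone flags about 1 group in 20, so this is no more than chance gives. FAS had 23.8 CPM in EA.hy926 replicate 4, below the 25.9 to 26.5 CPM of the other EA.hy926 libraries. In EA.hy926 replicate 2, TNFRSF10B had 379 CPM, against 404 to 412 CPM in the others. SPATA18 was at 18.8 CPM in EA.hy926 replicate 2 and at 20.3 to 20.8 CPM in the others. All 3 values lay above every HMEC-1 library, and with each library left out the log2FC was 2.37 to 2.45 for FAS, 1.52 to 1.57 for TNFRSF10B and 3.47 to 3.58 for SPATA18.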

How the results depend on the processing

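The 25 members called higher were 24 to 26 with each library left out, 25 with DESeq2, limma-voom, RLE factors or no filter on low counts, 26 with at least 10 counts in every library, 22 with glmTreat and 21 with library totals. With library totals 2 members were lower in place of 1, the median log2FC was 1.18 in place of 1.31, and 38 members in place of 37 had an adjusted p under 0.05. With at least 10 counts in every library, 0 p53 regulators were called higher and 2 lower. That limit takes out genes that are low in either line, such as TP63, TP73 and CDKN2A, the last at 0 counts in EA.hy926 only. No called gene among the 56 named ones turned its direction under these alternatives, apart from glmTreat, which was read for counts only, and the limit of at least 10 counts, which left 51 of them.

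Both lines number their replicates 1 to 5, and the labels give no pairing. The deviations of same-numbered libraries correlated by only -0.023 to 0.039, and not every library correlated best with its own number. These correlations cannot show whether same-numbered cultures were handled together. With the replicate block, 25 members were called higher and 1 lower, 37 had an adjusted p under 0.05, and no call of a named gene changed. Low counts limit the precision for TNFRSF10C, TP63, TP73, FUCA1 and SFN. In HMEC-1 the same holds for EDA2R (49 to 68 counts per library) and SPATA18 (49 to 88 counts per library).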
